A study of Mus musculus with 15 samples.

Results

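Purinergic signalling genes were followed across 5 sorted murine mononuclear phagocyte (MP) subtypes. The genes were 9 receptors and ectoenzymes of the 38924 genes in the deposited tables: the ATP-gated channels P2rx4 and P2rx7, the P2Y receptors P2ry6, P2ry10 and P2ry14, the ectoenzymes Entpd1 (CD39) and Nt5e (CD73), and the adenosine receptors Adora2a and Adora2b. All 9 symbols matched 1 Ensembl identifier each and all 9 passed the filter on low counts, which left 14456 genes for testing. RNA-seq libraries were made from splenic CD8+ DCs (the DC1 of the spleen), splenic CD4+ DCs (its DC2), lymph node (LN) CD103+ DCs (DC1), LN CD11b+ DCs (DC2) and splenic Ly6C+ monocytes, with 3 libraries for each. Each library held pooled cells of 5 naive C57BL/6 females, for which the labels give an age of 6 to 8 weeks, and no group carried an agent or an engineered allele. The LNs were those that drain the lung. The organs were taken from different cohorts, and the sort of LN DCs kept cells high in MHC class II, so organ, cohort and gate cannot be told apart. Monocytes were enriched with CD11b beads and DCs with CD11c beads, and only the monocyte libraries were sequenced in 2 runs. Between monocytes and DCs, cell type, enrichment and sequencing therefore cannot be told apart. Whether the pools of a subtype were made from separate litters or on separate days was not given in the sources used here, so the spread between libraries may be partly technical.

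Cells release ATP and other nucleotides when they are stressed, damaged or activated. P2X receptors are ion channels opened by ATP, whereas P2Y receptors are coupled to G proteins and respond to various nucleotides and nucleotide sugars. Entpd1 cuts extracellular ATP and ADP to AMP, Nt5e cuts AMP to adenosine, and adenosine acts on A2 receptors that raise cAMP and are known to dampen inflammatory responses of myeloid cells and lymphocytes.

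The libraries held 4531243 to 10233914 counts on genes. The labels were checked against markers. Xcr1, a DC1 marker, averaged 716 CPM in CD8+ and 3.71 CPM in CD4+ DCs of the spleen, and 55.2 CPM in CD103+ and 4.53 CPM in CD11b+ DCs of the LN. Ly6c2 averaged 825 CPM in monocytes and at most 15 CPM in a DC subtype. The MHC class II gene H2-Ab1 averaged 1766 and 7374 CPM in the CD103+ and CD11b+ DCs of the LN. It averaged 19138 and 15905 CPM in the CD8+ and CD4+ DCs of the spleen, and 1457 CPM in monocytes. The LN DCs, sorted as high in MHC class II, were thus lower in this transcript than the splenic DCs. The chemokine receptor Ccr7, a marker of migratory and mature DCs, averaged 4028 and 2319 CPM in the CD103+ and CD11b+ DCs of the LN, against 91.0 and 166 CPM in the CD8+ and CD4+ DCs of the spleen. Of 3 other markers of such DCs, Fscn1 and Cd40 were also higher on average in both LN subtypes. The third, Cd86, was highest in splenic CD8+ DCs (256 CPM). It averaged 153 and 131 CPM in LN CD103+ and CD11b+ DCs and 88.7 CPM in splenic CD4+ DCs. Transcripts of other cells were also present. A list of 5 B cell genes summed to 218 CPM in replicate 1 of LN CD103+ DCs and to 15.3 and 20.05 CPM in its other replicates, to between 44.0 and 78.5 CPM in LN CD11b+ DCs (replicate 1 the highest) and to between 24.2 and 87.9 CPM over the splenic libraries. All 5 genes had counts in both LN subtypes. A list of 5 T cell genes summed to between 56.9 and 114 CPM in the LN DC libraries, to between 3.51 and 17.01 CPM in the splenic DC libraries and to at most 0.583 CPM in monocytes. A list of 5 neutrophil genes summed to between 23.7 and 82.0 CPM in splenic CD4+ DCs. Apart from 1 count of S100a8 this sum was Mmp9 alone, and Ly6g, S100a9 and Retnlg had no count there. In monocytes the list summed to between 65.5 and 101 CPM, mainly from S100a8 and S100a9 (means of 41.9 and 37.9 CPM). The paper names both among its monocyte genes. In the other subtypes the list summed to at most 6.02 CPM. Lists of NK cell and platelet genes reached at most 15.5 and 4.66 CPM in any library.

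Levels are given as TPM, which accounts for gene length and so allows genes to be compared. Differences between subtypes are ratios of mean CPM (counts scaled to library size with TMM factors) with log2 fold changes ± SE from edgeR's quasi-likelihood test, whose p values were corrected across the 14456 genes (Benjamini-Hochberg), and a difference passed at an adjusted p of at most 0.05. With 3 libraries a side, the smallest p that an exact 2-sided permutation test can reach is 0.1. Intervals given for log2 differences are approximate 95% intervals. In bulk RNA a lower level can come from fewer cells that express a gene or from less RNA per cell, and these cannot be told apart.

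Windows of 250 bases before the annotated start are shown for 4 members: P2rx7 and Entpd1 because both were lowest in LN CD103+ DCs, P2ry14 because it was high in a single subtype, and P2ry10 because it was nearly absent from monocytes. The sequences are those of RefSeq on GRCm38.p6 (the build mm10), at the RefSeq start nearest to the start of the deposited gene, read 5′ to 3′ on the strand of the gene. They lie at chr5:122643677-122643926 (+) for P2rx7, chr19:40612116-40612365 (+) for Entpd1, chr3:59130763-59131012 (-) for P2ry14 and chrX:107088242-107088491 (+) for P2ry10. Capitals mark matches to AP-1 (TGANTCA).
P2rx7: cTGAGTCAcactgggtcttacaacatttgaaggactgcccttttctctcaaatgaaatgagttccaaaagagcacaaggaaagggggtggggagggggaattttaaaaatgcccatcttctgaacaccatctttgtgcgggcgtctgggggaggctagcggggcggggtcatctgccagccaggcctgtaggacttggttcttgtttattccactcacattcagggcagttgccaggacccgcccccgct
Entpd1: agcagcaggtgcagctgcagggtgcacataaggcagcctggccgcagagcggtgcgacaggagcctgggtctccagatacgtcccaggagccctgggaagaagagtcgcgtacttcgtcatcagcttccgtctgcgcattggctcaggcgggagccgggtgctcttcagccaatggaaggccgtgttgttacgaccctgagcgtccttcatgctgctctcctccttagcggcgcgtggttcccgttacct
P2ry14: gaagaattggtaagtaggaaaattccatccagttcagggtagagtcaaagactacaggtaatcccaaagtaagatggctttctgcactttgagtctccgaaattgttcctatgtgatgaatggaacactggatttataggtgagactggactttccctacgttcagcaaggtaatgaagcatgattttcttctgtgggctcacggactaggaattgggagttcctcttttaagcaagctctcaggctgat
P2ry10: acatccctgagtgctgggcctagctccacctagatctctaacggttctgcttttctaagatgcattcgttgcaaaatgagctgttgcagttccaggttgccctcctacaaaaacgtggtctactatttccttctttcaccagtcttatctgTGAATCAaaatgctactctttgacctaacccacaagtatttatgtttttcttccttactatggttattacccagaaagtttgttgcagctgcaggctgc

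Both strands of these windows were searched for AP-1, for the cAMP response element (TGACGTCA), for an ETS-IRF composite element, for the core of the interferon-stimulated response element, which can overlap the former, and for an E-box (CACGTG). The only matches in the 4 windows were the AP-1 letters in P2rx7 and in P2ry10, and 6.75% of the 32851 RefSeq windows of this length hold them. P2ry14 has other RefSeq starts, and the windows of 2 of them hold the AP-1 letters. P2rx7, Entpd1 and P2ry10 each have a second RefSeq start, whose window holds no match. The share of windows with a match was 1.55% for the cAMP response element, 2.30% for the ETS-IRF element, 2.98% for the interferon-stimulated response element core and 6.02% for the E-box. The windows differed in base composition, with 18 CG dinucleotides in that of Entpd1, 6 in P2rx7, 3 in P2ry14 and 3 in P2ry10, against a median of 6 over all windows. At the second starts of Entpd1, P2rx7 and P2ry10 the windows held 8, 4 and 5, and at the other starts of P2ry14 4, 1 and 4. RefSeq windows were used for 7 of the 9 members, and none for P2ry6 and Adora2a.

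P2rx4 and P2rx7 are neighbours on chromosome 5 and differed in their patterns. P2rx4 (ENSMUSG00000029470, chr5:122707584-122729738, + strand) encodes a channel with high affinity for ATP. It was measured at 68.1, 65.6 and 49.1 TPM in the libraries of splenic CD8+ DCs and at 62.6, 66.0 and 63.3 TPM in LN CD103+ DCs. The other subtypes were higher, with 94.5, 121 and 133 TPM in splenic CD4+ DCs, 134, 141 and 185 TPM in LN CD11b+ DCs and 126, 125 and 120 TPM in monocytes. The ranges of the DC1 subtypes therefore did not overlap those of the DC2 subtypes or of monocytes. P2rx4 was 1.86-fold lower in DC1 than in DC2 of the spleen (log2 fold change -0.89 ± 0.19, adjusted p = 0.00173) and 2.24-fold lower in DC1 than in DC2 of the LN (-1.16 ± 0.19, adjusted p = 0.000339). Between the organs it did not pass the threshold in either lineage. The difference LN CD103+ minus splenic CD8+ was 0.16 (interval -0.21 to 0.53), and LN CD11b+ minus splenic CD4+ was 0.43 (0.07 to 0.80, adjusted p = 0.085). Without replicate 2 of splenic CD4+ DCs the latter was 0.57 and passed (adjusted p = 0.0372).

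P2rx7 (ENSMUSG00000029468, chr5:122643911-122691432, + strand) ends 16152 bases before P2rx4 starts. It encodes the channel that needs high ATP and is known for driving inflammasome activation and for opening a large pore. Its exons share 119 bases, 2.2% of their length, with the microRNA gene Mir8115. Monocytes held 44.0, 42.1 and 44.7 TPM, splenic CD8+ DCs 20.2, 27.4 and 27.9 TPM and splenic CD4+ DCs 12.4, 24.3 and 19.4 TPM. LN CD11b+ DCs held 9.45, 8.76 and 9.38 TPM, and LN CD103+ DCs 1.05, 0.477 and 2.12 TPM. Every LN library was below every splenic library. P2rx7 was 19.7-fold lower in LN CD103+ than in splenic CD8+ DCs (log2 fold change -4.35 ± 0.38, adjusted p = 3.78e-08) and 7.19-fold lower in LN CD103+ than in LN CD11b+ DCs (-2.90 ± 0.38, adjusted p = 3.46e-05). These ratios rested on 18, 10 and 30 counts in LN CD103+ DCs, and without replicate 3 of that subtype they were 30.9 and 11.3. In DC2 the LN was 2.01-fold lower (-0.999 ± 0.32, adjusted p = 0.0217). That call was lost without replicate 2 of splenic CD4+ DCs (-0.63, adjusted p = 0.144) and without replicate 1, 2 or 3 of LN CD11b+ DCs (adjusted p = 0.0575, 0.0532 and 0.0541), as well as without replicate 1 of both LN subtypes (adjusted p = 0.0659), the LN libraries with the most B cell counts, a setting chosen after seeing the data. It was also lost with limma on log2(TPM + 0.1) (-0.96, adjusted p = 0.0704). Neither monocytes against splenic CD8+ DCs (0.69 ± 0.31, adjusted p = 0.0822) nor splenic CD8+ against CD4+ DCs (0.45 ± 0.31, adjusted p = 0.302) passed. The former passed with only these subtypes in the fit (adjusted p = 0.00466), with no filter on low counts (0.025), with limma on log2(TPM + 1) (0.0344), and without replicate 2 of splenic CD4+ DCs or replicate 2 or 3 of LN CD103+ DCs (0.0472, 0.0489 and 0.0473).

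Within each library, the TPM of P2rx7 was set against that of P2rx4. The ratio was 0.428 ± 0.136 (SD, n = 3) in splenic CD8+ DCs and 0.352 ± 0.0178 in monocytes. It was 0.159 ± 0.0371 in splenic CD4+ DCs, 0.0612 ± 0.00996 in LN CD11b+ DCs and 0.0192 ± 0.0133 in LN CD103+ DCs. P2rx4 thus exceeded P2rx7 in all 15 libraries, and the excess was larger in every LN library than in any splenic library.

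**Figure D1:**
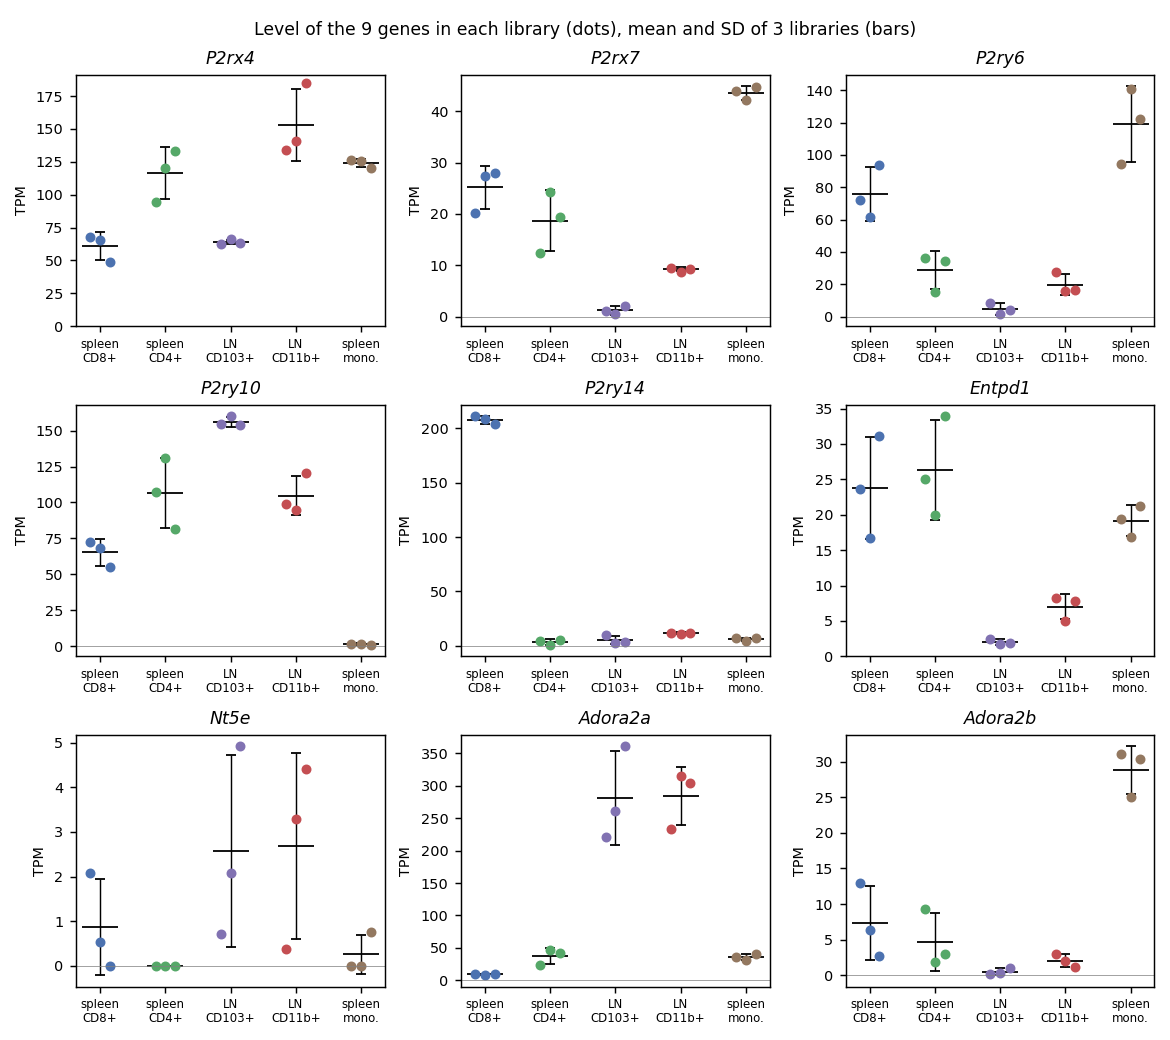
TPM of the 9 members in each of the 15 libraries, 1 panel per gene with its own linear axis. Dots are libraries, and bars give the mean and SD of the 3 libraries of a subtype. P2ry14 stands at 204 to 211 TPM in splenic CD8+ DCs and at no more than 12.2 TPM elsewhere, and Adora2a at 221 to 360 TPM in LN DCs and at no more than 46.7 TPM in the spleen.

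Of the P2Y receptors, P2ry6 (ENSMUSG00000048779, chr7:100937638-100964391, - strand) encodes the receptor for UDP. It reached 94.6, 141 and 122 TPM in monocytes and 72.5, 61.4 and 93.9 TPM in splenic CD8+ DCs, and in CPM these ranges overlapped (68.6 to 109 against 51.1 to 75.8), with a difference that did not pass (0.56 ± 0.36, adjusted p = 0.234) except with only these subtypes in the fit (adjusted p = 0.0317). Splenic CD4+ DCs held 36.3, 15.1 and 34.7 TPM, LN CD11b+ DCs 27.5, 15.7 and 16.3 TPM and LN CD103+ DCs 8.63, 1.46 and 4.35 TPM. P2ry6 was 2.80-fold higher in DC1 than in DC2 of the spleen (log2 fold change 1.48 ± 0.38, adjusted p = 0.00677), and 3.89-fold lower in DC1 than in DC2 of the LN (-1.99 ± 0.43, adjusted p = 0.00384). From splenic CD8+ to LN CD103+ DCs it was 14.9-fold lower (-3.91 ± 0.44, adjusted p = 7.44e-07). LN CD103+ replicate 1, the library with 218 CPM of B cell genes, held most of the 53, 11 and 22 counts there, and without it the ratios to LN CD11b+ and splenic CD8+ DCs were 6.48 and 24.8. In DC2 the organs did not differ past the threshold (-0.44 ± 0.39, adjusted p = 0.422).

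P2ry14 (ENSMUSG00000036381, chr3:59114626-59130624, - strand) encodes the receptor for UDP-glucose and related nucleotide sugars. It lies within the span of Med12l on the opposite strand, with no shared exon bases in the annotation. Counts were made without regard to strand, so unspliced Med12l reads over P2ry14 exons would be counted for P2ry14. Their part in its low levels was not tested. The libraries of splenic CD8+ DCs held 211, 208 and 204 TPM. The next subtype, LN CD11b+ DCs, held 12.05, 11.1 and 12.2 TPM, followed by monocytes with 6.72, 4.34 and 6.77 TPM, LN CD103+ DCs with 9.65, 2.58 and 3.84 TPM and splenic CD4+ DCs with 4.25, 0.825 and 5.31 TPM. Splenic CD8+ DCs were thus above every other library by a wide margin. A list of 5 plasmacytoid DC genes also reached its highest sum in this subtype, with 277, 197 and 162 CPM in its replicates, against 106 to 119 CPM in splenic CD4+, 97.6 to 144 in LN CD103+ and 127 to 191 in LN CD11b+ DCs and 158 to 192 in monocytes, so that it overlapped the last 2 of these. Its genes differed in direction. Siglech averaged 17.6 CPM in splenic CD8+ DCs and at most 5.60 CPM elsewhere, and Ccr9 62.6 CPM and at most 12.9 CPM. Tcf4 was similar in splenic CD8+ DCs and monocytes (91.1 and 87.5 CPM). Bst2 was highest in monocytes (87.6 against 36.9 CPM) and Ly6d in LN CD103+ DCs (18.6 against 4.02 CPM). All 5 genes had counts in every DC subtype, Siglech had none in monocytes, and the part of this list in the P2ry14 result was not tested. The ratio of splenic CD8+ to CD4+ DCs was 65.3 (log2 fold change 6.00 ± 0.44, adjusted p = 1.79e-08), and to LN CD103+ DCs 36.5 (adjusted p = 1.02e-08). Without replicate 1 of LN CD103+ DCs, the library high in B cell genes, which held 55 counts against 18 and 18, the latter was 61.1. In DC2 the organ difference was opposite, 3.71-fold higher in the LN (1.86 ± 0.43, adjusted p = 0.00243), at low levels. LN CD103+ and LN CD11b+ DCs differed by -1.06 ± 0.40 (adjusted p = 0.0928). With the replicate number as a block this passed (-1.12, adjusted p = 0.0408), as it did without replicate 1 of LN CD103+ DCs (-1.81, adjusted p = 0.00518) or replicate 2 of splenic CD4+ DCs (adjusted p = 0.0406), without replicate 1 of both LN subtypes (0.0157) and with no filter on low counts (0.00954). Monocytes were 2.14-fold below LN CD11b+ DCs (-1.12 ± 0.40, adjusted p = 0.0275), a call lost without replicate 1 or 2 of LN CD11b+ DCs (adjusted p = 0.0579 and 0.0584) or replicate 1 or 2 of monocytes (0.0505 and 0.12), or with limma on log2(TPM + 1) (-0.90, 0.0921) or log2(TPM + 0.1) (0.154). LN CD103+ against splenic CD4+ DCs (0.81 ± 0.45, adjusted p = 0.153) passed without replicate 2 of LN CD103+ DCs (1.16, adjusted p = 0.0444).

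P2ry10 (ENSMUSG00000050921, chrX:107088492-107104974, + strand) carries a P2Y name, but its product is known as a receptor for lysophospholipids, lysophosphatidylserine among them. It was measured at 154, 160 and 154 TPM in LN CD103+ DCs, 107, 131 and 81.7 TPM in splenic CD4+ DCs, 99.1, 94.99 and 120 TPM in LN CD11b+ DCs and 72.7, 68.2 and 54.7 TPM in splenic CD8+ DCs. Monocytes held 1.76, 1.63 and 0.794 TPM, from 10, 20 and 7 counts. Every DC library was far above every monocyte library, and the ratios ranged from 50.2 against splenic CD8+ DCs (log2 fold change of monocytes minus DCs -5.64 ± 0.31, adjusted p = 8.03e-11) to 128 against LN CD103+ DCs (-6.99 ± 0.32, adjusted p = 5.15e-12).

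Differences of P2ry10 among the DCs were small beside those from monocytes. LN CD103+ DCs exceeded splenic CD8+ DCs 2.55-fold (1.35 ± 0.23, adjusted p = 9.56e-05). Without replicate 1 of both LN subtypes it was 1.37 (adjusted p = 0.000575). The T cell list was higher in all LN DC libraries than in the splenic ones, and its part in the P2ry10 result was not tested. Splenic CD8+ were below splenic CD4+ DCs (-0.70 ± 0.23, adjusted p = 0.0294), which was lost without replicate 3 of the former (-0.58, adjusted p = 0.12) or replicate 2 of the latter (-0.41, adjusted p = 0.19), with limma on log2(TPM + 0.1) (-0.69, adjusted p = 0.059) and with only these subtypes in the fit (-0.70, adjusted p = 0.0988). LN CD11b+ DCs were above splenic CD8+ DCs (0.68 ± 0.23, adjusted p = 0.023), lost without replicate 3 of either subtype (adjusted p = 0.0923 for splenic CD8+ and 0.0619 for LN CD11b+ DCs). The call of LN CD103+ over splenic CD4+ DCs (0.65 ± 0.23, adjusted p = 0.0241) was lost without replicate 1 or 3 of splenic CD4+ DCs (0.064 and 0.109) or replicate 2 of LN CD103+ DCs (0.0656), and without replicate 1 of both LN subtypes (0.0533), with limma on log2(TPM + 0.1) (0.57, 0.0774) and with only these subtypes in the fit (0.62, 0.0742). LN CD103+ against LN CD11b+ DCs did not pass (0.67 ± 0.23, adjusted p = 0.062) but did with the replicate block (0.66, adjusted p = 0.0267) and without replicate 2 or 3 of splenic CD4+ DCs (0.0221 and 0.0272), with only these subtypes in the fit (0.0209), with DESeq2 (0.0327) and with no filter on low counts (0.0412).

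Entpd1 (ENSMUSG00000048120, chr19:40612366-40741602, + strand), the ecto-ATPase CD39, was measured at 23.7, 16.7 and 31.1 TPM in splenic CD8+ DCs, 25.0, 19.999 and 33.9 TPM in splenic CD4+ DCs and 19.4, 16.9 and 21.3 TPM in monocytes. LN CD11b+ DCs held 8.23, 4.98 and 7.88 TPM and LN CD103+ DCs 2.43, 1.71 and 1.85 TPM. The splenic subtypes overlapped in TPM and lay above every LN CD11b+ library, and these lay above every LN CD103+ library. In CPM monocytes (37.6 to 46.2) did not overlap splenic CD4+ DCs (51.3 to 69.4). Entpd1 was 11.2-fold lower in the LN in DC1 (log2 fold change -3.48 ± 0.27, adjusted p = 8.62e-09) and 3.60-fold lower in DC2 (-1.84 ± 0.25, adjusted p = 1.31e-05). Without replicate 1 of both LN subtypes these differences were -3.64 and -1.98. Within the LN, CD103+ DCs were 3.28-fold below CD11b+ DCs (-1.71 ± 0.27, adjusted p = 0.000232). No difference among the splenic subtypes passed: CD8+ minus CD4+ DCs was -0.08 (interval -0.54 to 0.38), and monocytes were at -0.41 and -0.49 to the splenic CD8+ and CD4+ DCs (adjusted p = 0.174 and 0.0944).

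Nt5e (ENSMUSG00000032420, chr9:88327609-88372089, + strand), the AMP-hydrolysing CD73, was low throughout, with at most 46 counts in a library. Its counts were 25, 6 and 0 in splenic CD8+ DCs, 0, 0 and 0 in splenic CD4+ DCs, 8, 29 and 46 in LN CD103+ DCs, 5, 36 and 28 in LN CD11b+ DCs and 0, 0 and 8 in monocytes. Libraries of a subtype differed widely, and only splenic CD4+ DCs had no count in any library. Against splenic CD4+ DCs, set to 3 counts over the group in lieu of none, the level of LN CD103+ DCs was at least 26.5-fold higher (adjusted p = 0.00569) and that of LN CD11b+ DCs at least 26.2-fold higher (adjusted p = 0.00903). Leaving out 1 LN library moved these limits to between 14.8 and 36.0 and to between 19.03 and 37.5. Replicate 1 had the lowest Nt5e CPM and replicate 3 the highest in both LN subtypes. The T cell list had the same order, with 76.5, 90.6 and 114 CPM in LN CD103+ and 56.9, 66.4 and 83.8 CPM in LN CD11b+ DCs, whereas the B cell list was highest in replicate 1. The part of these lists in the Nt5e results was not tested. The difference of splenic CD8+ from CD4+ DCs missed the threshold (at least 8.28-fold, and 2.65 to 12.4 with 1 splenic CD8+ library left out, adjusted p = 0.0559) and passed with no filter on low counts (adjusted p = 0.000115), the replicate block (0.0392) or DESeq2 (0.0452), and without replicate 3 of splenic CD8+ DCs (0.0307), replicate 1 of LN CD11b+ DCs (0.0455), replicate 1 of both LN subtypes (0.042) or replicate 3 of monocytes (0.0466).

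Between monocytes and the LN DCs, Nt5e gave calls that rested on few counts. Monocytes were 11.5-fold below LN CD103+ DCs (adjusted p = 0.0368) and 11.4-fold below LN CD11b+ DCs (adjusted p = 0.0432), and replicate 3 held all 8 monocyte counts. The first was lost without replicate 2 or 3 of LN CD103+ DCs (adjusted p = 0.0544 and 0.141) or replicate 1 or 2 of monocytes (0.104 and 0.125), and its ratio was 6.43 without LN CD103+ replicate 3 and 7.68 without monocyte replicate 1 or 2. The second was lost without replicate 2 of LN CD103+ DCs (0.0526), replicate 2 or 3 of LN CD11b+ DCs (0.104 and 0.106) or replicate 1 or 2 of monocytes (0.118 and 0.14). DESeq2 gave adjusted p = 0.104 for the first and 0.114 for the second. LN CD103+ and LN CD11b+ DCs, at 4.04 ± 3.30 and 4.002 ± 3.03 CPM (SD, n = 3), differed by 0.04 with a wide interval (-2.07 to 2.15), and neither exceeded splenic CD8+ DCs past the threshold (adjusted p = 0.255 and 0.282). The TPM ratio of Nt5e to Entpd1 within a library was 0.290 to 2.66 in LN CD103+ DCs, 0.0443 to 0.660 in LN CD11b+ DCs and at most 0.0878 in any splenic library.

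Adora2a (ENSMUSG00000020178, chr10:75316943-75334788, + strand), an adenosine receptor of high affinity, was the most abundant member in both LN subtypes. LN CD103+ DCs held 221, 261 and 360 TPM and LN CD11b+ DCs 233, 315 and 303 TPM. Splenic CD4+ DCs held 23.7, 46.7 and 41.7 TPM, monocytes 36.3, 31.8 and 39.9 TPM and splenic CD8+ DCs 10.3, 8.18 and 9.11 TPM. Every LN library was above every splenic one, and the libraries of splenic CD8+ DCs were the lowest. Adora2a was 32.5-fold higher in the LN in DC1 (log2 fold change 5.02 ± 0.30, adjusted p = 4.14e-10) and 7.76-fold higher in DC2 (2.96 ± 0.27, adjusted p = 1.34e-07). Splenic CD8+ DCs were 4.01-fold below splenic CD4+ DCs (-1.997 ± 0.27, adjusted p = 2.58e-05) and 3.65-fold below monocytes (adjusted p = 1.93e-05). LN CD103+ and LN CD11b+ DCs differed by 0.06 (interval -0.42 to 0.55), and monocytes and splenic CD4+ DCs by -0.13 (-0.64 to 0.37). Without replicate 1 of both LN subtypes the organ differences were 5.17 in DC1 and 3.10 in DC2 (adjusted p = 3.54e-09 and 5.56e-07). The Ccr7 level and the T cell list were higher in the same LN libraries, and their part in the Adora2a result was not tested.

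Adora2b (ENSMUSG00000018500, chr11:62248984-62266453, + strand), the adenosine receptor of low affinity, had its highest levels in monocytes, with 31.0, 25.0 and 30.4 TPM. Splenic CD8+ DCs held 12.9, 6.30 and 2.68 TPM, splenic CD4+ DCs 9.35, 1.81 and 2.95 TPM, LN CD11b+ DCs 2.97, 1.95 and 1.22 TPM and LN CD103+ DCs 0.171, 0.280 and 1.04 TPM. Monocytes stood apart from every DC library, the DC subtypes other than LN CD103+ overlapped, and replicate 1 was the highest in both splenic DC subtypes. Adora2b was 3.71-fold higher in monocytes than in splenic CD8+ DCs (log2 fold change 1.89 ± 0.54, adjusted p = 0.00844) and 6.02-fold higher than in splenic CD4+ DCs (2.55 ± 0.56, adjusted p = 0.00115). Without replicate 1 of each splenic subtype these ratios were 5.83 and 11.6. Monocytes were 51.3-fold above LN CD103+ DCs (adjusted p = 2.3e-06), and 110.0-fold without replicate 3 of the latter. LN CD103+ DCs, with 1, 2 and 5 counts, were 13.8-fold below splenic CD8+ DCs (-3.82 ± 0.74, adjusted p = 0.000317), and this was 29.6-fold without replicate 3 of LN CD103+ and 8.80-fold without replicate 1 of splenic CD8+ DCs. The ratio to splenic CD4+ DCs was 8.51 (adjusted p = 0.00205), with 18.3 and 4.41 when replicate 3 of LN CD103+ or replicate 1 of splenic CD4+ DCs was left out. LN CD11b+ were 3.49-fold below splenic CD8+ DCs (adjusted p = 0.0289), a call lost without replicate 1 of splenic CD8+ DCs (2.22-fold, adjusted p = 0.196) or replicate 2 or 3 of LN CD11b+ DCs (0.0756 and 0.0914), or with limma on log2(TPM + 0.1) (-1.60, 0.0775).

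The share of Adora2a in the summed TPM of both A2 receptors separated the organs among the DCs. It was 99.8% ± 0.113 (SD, n = 3) in LN CD103+ DCs and 99.2% ± 0.445 in LN CD11b+ DCs. In the spleen it was 87.1% ± 13.4 in CD4+ DCs, 59.4% ± 16.6 in CD8+ DCs and 55.6% ± 1.48 in monocytes. In both splenic DC subtypes the lowest share was that of replicate 1, where Adora2b was highest.

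**Figure D2:**
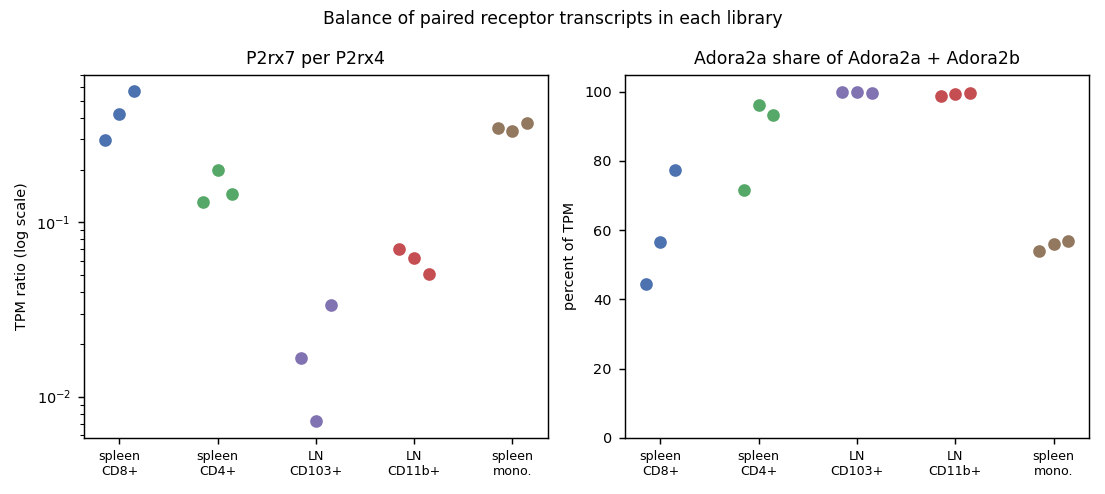
TPM ratio of P2rx7 to P2rx4 on a log scale (left) and the share of Adora2a in the TPM of Adora2a and Adora2b in percent (right), with 1 dot per library. All LN libraries lie below all splenic libraries on the left, between 0.00723 and 0.0706, and above 98.7% on the right.

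Ordered by mean TPM within a subtype, the members gave a different leading gene in the spleen and in the LN. P2ry14 led in splenic CD8+ DCs with 43.6% of the TPM of the 9 genes, P2rx4 in splenic CD4+ DCs (34.0%) and monocytes (32.7%), and Adora2a in LN CD103+ (54.3%) and LN CD11b+ DCs (47.8%). P2ry14 and Adora2a were first in 3 of 3 libraries of these subtypes, but P2rx4 in 1 of 3 in each of its own. P2ry10 exceeded it in replicates 1 and 2 of splenic CD4+ DCs, and P2ry6 in replicates 2 and 3 of monocytes. The leading pair was P2rx4 and P2ry10 in splenic CD4+ DCs and P2rx4 and P2ry6 in monocytes. The sum over the 9 genes was 594 ± 66.6 TPM (SD, n = 3) in the CD11b+ and 517 ± 70.1 in the CD103+ DCs of the LN, 476 ± 15.8 in the CD8+ and 342 ± 25.4 in the CD4+ DCs of the spleen, and 378 ± 16.1 in monocytes.

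Counted by comparison, 5 of 9 members passed between DC1 and DC2 of the spleen, where 27.4% of all genes tested passed. P2ry6 and P2ry14 were higher in splenic CD8+ DCs (13.1% of all genes) and P2rx4, P2ry10 and Adora2a lower (14.4%), the P2ry10 call being lost under 4 of 24 alternatives. Nt5e, higher in splenic CD8+ DCs, passed as well with the replicate number as a block. Between DC1 and DC2 of the LN 4 of 9 passed (12.9%). P2rx4, P2rx7, P2ry6 and Entpd1 were lower in CD103+ DCs (7.73%) and no member was higher (5.22%). With no filter on low counts 7 of 9 passed there (9.92%). With the replicate number as a block, P2ry10 passed there as well, higher in CD103+ DCs, and so did P2ry14, lower. The LN minus spleen comparison called 7 of 9 in DC1 (45.6%), with Adora2a and P2ry10 higher (23.8%) and P2rx7, P2ry6, P2ry14, Entpd1 and Adora2b lower in the LN (21.8%). In DC2 it called 5 of 9 (33.1%), with Adora2a, P2ry14 and Nt5e higher (19.3%) and P2rx7 and Entpd1 lower (13.8%). Adora2a was thus higher, and P2rx7 and Entpd1 were lower, in the LN in both lineages, but the P2rx7 call in DC2 was lost under 6 of 24 alternatives, and those of Adora2a and Entpd1 under none of 24. Marker lists of other cells also differed between these groups. The sum over 5 macrophage genes was 149 to 241 CPM in the CD8+ and 962 to 1282 CPM in the CD4+ DCs of the spleen, and 155 to 204 CPM in the CD103+ and 543 to 747 CPM in the CD11b+ DCs of the LN. The sum over 4 monocyte genes was 79.5 to 93.6 and 56.9 to 79.3 CPM in these splenic subtypes, and 22.2 to 30.2 and 205 to 305 CPM in these LN subtypes. All 9 genes had counts in each DC subtype, and their part in the members' results was not tested.

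Across lineage and organ, LN CD103+ and splenic CD4+ DCs differed in 8 of 9 members (47.0% of all genes), with 3 higher (24.8%) and 5 lower (22.2%) in the former. LN CD11b+ and splenic CD8+ DCs differed in 8 of 9 (39.9%), with 3 higher (22.5%) and 5 lower (17.3%) in the former. Against splenic CD8+ DCs, monocytes were higher in 3 members (20.4%) and lower in 2 (21.7%), so that 5 of 9 passed (42.1%). Against splenic CD4+ DCs 4 of 9 passed (48.0%), a share near that of all genes, with 3 higher (23.8%) and 1 lower (24.2%) in monocytes. Against LN CD103+ DCs 8 of 9 passed (53.2%), 5 of them higher (24.6%) and 3 lower (28.6%). Against LN CD11b+ DCs 8 of 9 passed (47.8%), 4 of them higher (21.3%) and 4 lower (26.5%). Tested for any difference among the 5 subtypes, 9 of 9 members passed, as did 73.5% of all genes. The median absolute log2 fold change of the members was 0.89 in the spleen, 1.16 in the LN, 3.82 between the DC1 and 1.07 between the DC2 subtypes, against 0.57, 0.40, 0.81 and 0.60 over all genes.

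Some members passed against each of the 4 other subtypes. In splenic CD8+ DCs P2ry14 was above each other subtype, as were 2.83% of all genes, and Adora2a was lower there, as were 2.70%. P2rx7, P2ry6 and Entpd1 were lower in LN CD103+ DCs than in each other subtype, against 3.23% of all genes. Adora2b was higher in monocytes than in each DC subtype (9.35% of all genes) and P2ry10 lower (8.81%). No member was highest or lowest in this sense in splenic CD4+ DCs (2.52% and 2.30% of all genes) or LN CD11b+ DCs (0.747% and 0.131%). None was highest in LN CD103+ DCs (3.18%). P2ry10 missed this only against LN CD11b+ DCs, a difference that passed with the replicate block.

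**Figure D3:**
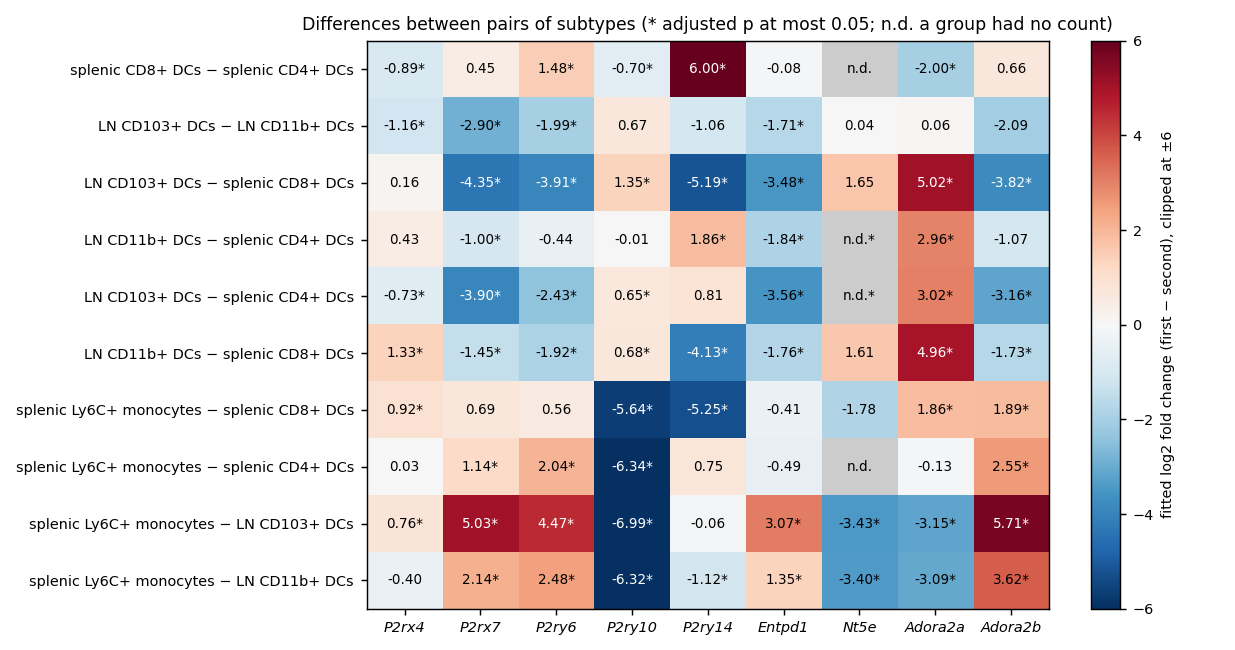
Fitted log2 fold changes of the 9 members in the 10 pairs of subtypes, first minus second. Red is higher and blue lower in the first subtype, asterisks mark an adjusted p of at most 0.05, and grey cells with n.d. are pairs in which 1 subtype had no count. Up to 8 members carry an asterisk in a row, as for monocytes minus LN CD103+ DCs, and P2ry10 is at or below -5.64 in every monocyte row.

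Whether the organ difference was alike in DC1 and DC2 was tested as an interaction, LN minus spleen in DC1 minus LN minus spleen in DC2. It passed in 6 of 9 members, where 11.2% of all genes passed, above 0 in 2 members (5.17% of all genes) and below 0 in 4 (6.03%). Adora2a differed more in DC1 (interaction 2.06 ± 0.37, adjusted p = 0.00112) and P2ry10 was higher in the LN in DC1 with no call in DC2 (1.36 ± 0.32, adjusted p = 0.00926). P2rx7 and Entpd1 were further below the spleen in DC1, with interactions of -3.35 ± 0.49 (adjusted p = 0.00019) and -1.63 ± 0.36 (adjusted p = 0.00538). P2ry6 was lower in the LN in DC1 with no call in DC2 (-3.47 ± 0.57, adjusted p = 0.000534). P2ry14 was lower in the LN in DC1 and higher in DC2 (-7.06 ± 0.58, adjusted p = 4.98e-07). With 1 library left out, LN CD103+ replicate 3 for P2rx7 and replicate 1 for P2ry6 and P2ry14, the interactions were -3.96, -4.25 and -7.81. For P2rx4 the interaction was -0.27 ± 0.27 (adjusted p = 0.575), and for Nt5e it could not be sized because splenic CD4+ DCs had no count (adjusted p = 0.155, and 0.00252 with no filter on low counts). For Adora2b it was -2.76 ± 0.98 (adjusted p = 0.0806), and it passed without replicate 1 of splenic CD4+ DCs (-3.73, adjusted p = 0.0158) or replicate 3 of splenic CD8+ DCs (-3.16, adjusted p = 0.0367), with no filter on low counts (adjusted p = 0.00707) and with DESeq2 (0.0459).

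**Figure D4:**
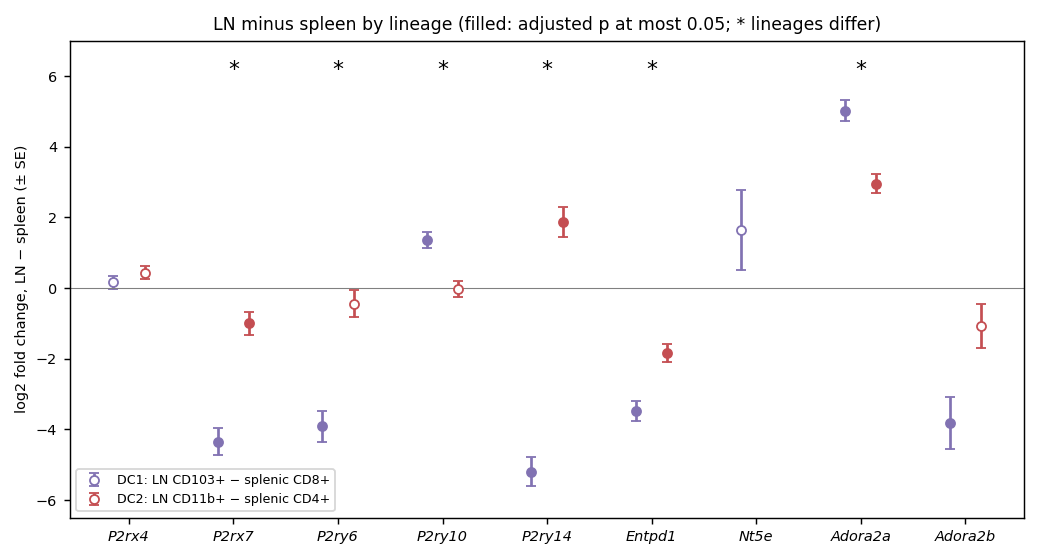
Log2 fold change LN minus spleen (± SE) of each member in DC1 and in DC2. Filled points have an adjusted p of at most 0.05, asterisks mark members whose organ difference differed between lineages, and the Nt5e point of DC2 is left out because splenic CD4+ DCs had no count. P2ry14 is at -5.19 in DC1 and 1.86 in DC2, the only member with calls in opposite directions.

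The genes with the pattern most like that of a member were found by Pearson's r of log2 CPM over the 15 libraries, among genes with a mean of at least 10 CPM. Libraries of a subtype share its level, so r describes the pattern over 5 subtypes and no test was made. P2ry10 was most like Rab30 (r = 0.995), Adam23 (0.989) and Chst15 (0.987), and Adora2a most like Rassf2 (0.990), Samsn1 (0.987) and Stk4 (0.986). P2rx7 was followed by Tifab (0.974), Acer3 (0.974) and Zfp385a (0.971), P2ry6 by Scarb1 (0.977), Tmed5 (0.967) and Slc31a1 (0.965), and Entpd1 by Dpy19l1 (0.965), Mapk14 (0.963) and Rgs18 (0.962). P2ry14 was followed by Eefsec (0.955), Cxcl9 (0.948) and Gm26527 (0.935), Adora2b by Dhrs7 (0.953), Hdgfl3 (0.951) and Slc25a22 (0.951), and P2rx4 by Rora (0.949), Axl (0.924) and Rasgrp1 (0.922). Nt5e had the least close partners, Gm26772 (0.843), Kctd12 (0.837) and Fnbp1l (0.823).

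Beyond the 9 members, 49 other genes of nucleotide and adenosine handling were listed in 8 groups, of which 48 were matched and 33 passed the filter on low counts. Of these 33, 11 passed between DC1 and DC2 of the spleen (6 higher and 5 lower in CD8+ DCs), where 27.4% of all genes passed, and 11 between DC1 and DC2 of the LN (2 higher and 9 lower in CD103+ DCs), where 12.9% did. LN minus spleen called 19 in DC1 (4 higher, 15 lower), against 45.6% of all genes, and 11 in DC2 (5 higher, 6 lower), a share near the 33.1% of all genes. Their median log2 fold change from splenic CD8+ to LN CD103+ DCs was -1.003, against 0.00 over all genes and -3.48 over the 9 members. The LN minus spleen calls in DC1 held 1 of 2 other P2X receptors (higher) and 2 of 4 other P2Y receptors (lower). They held 4 of 4 lysophosphatidylserine and P2Y-like receptors (1 higher, 3 lower) and 1 of 1 other adenosine receptor (lower). Of the other ectonucleotidases 2 of 6 passed (lower), and of Entpd4, Entpd5, Entpd6 and Entpd7 3 of 4 passed (1 higher, 2 lower). Also called were 5 of 9 genes of adenosine removal and transport (1 higher, 4 lower) and 1 of 3 genes of nucleotide release (lower).

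Among the other P2X receptors, 2 of 5 passed the filter. P2rx5, a channel that opens weakly to ATP, averaged 16.1 ± 4.11 CPM in LN CD103+ DCs and 15.5 ± 2.20 in LN CD11b+ DCs, against 5.19 and 2.70 in splenic CD8+ and CD4+ DCs. It was 61.8-fold lower in monocytes than in LN CD103+ DCs (log2 fold change -5.68 ± 0.47, adjusted p = 7.52e-09), with 7 counts over the monocyte libraries, and 41.2-fold without monocyte replicate 1, which had none.

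Of the other P2Y receptors, 4 of 5 passed the filter and all 4 were lower in LN CD103+ than in LN CD11b+ DCs, as were 7.73% of all genes (12.9% passed in either direction). The ADP receptor P2ry1 averaged 24.3 ± 4.75 CPM in monocytes and 9.98 ± 4.54 in LN CD11b+ DCs, and at most 1.17 CPM in the other subtypes. It was 16.6-fold lower in LN CD103+ than in LN CD11b+ DCs (-4.09 ± 0.86, adjusted p = 0.00303), and 14.6-fold higher in LN CD11b+ than in splenic CD4+ DCs (3.94 ± 0.86, adjusted p = 0.00153). The first ratio was 11.1 without replicate 2 of LN CD103+ DCs, which had no count. The second rested on 12 counts, all in replicate 2 of splenic CD4+ DCs, and was 9.76 without replicate 1 or 3 of that subtype. P2ry12 and P2ry13, also ADP receptors, were 11.2-fold and 8.67-fold lower in LN CD103+ than in LN CD11b+ DCs (adjusted p = 0.000635 and 0.000141). Replicate 3 of LN CD103+ DCs held 12 of 19 P2ry12 counts, and the ratio without it was 24.2. LN CD11b+ DCs had the highest mean of both, 10.7 ± 1.78 CPM for P2ry12 and 28.4 ± 3.37 for P2ry13. The macrophage and monocyte lists were both higher in LN CD11b+ than in LN CD103+ DCs. In the sum of the macrophage list splenic CD4+ DCs were above LN CD11b+ DCs (962 to 1282 against 543 to 747 CPM). The genes of this list went both ways. Adgre1 (664 against 117 CPM) and Vcam1 (321 against 266 CPM) averaged higher in splenic CD4+ DCs. Mertk (17.7 against 22.7 CPM), C1qa (19.8 against 54.9 CPM) and C1qb (70.5 against 205 CPM) averaged lower there. Splenic CD4+ DCs were below LN CD11b+ DCs in the monocyte list (56.9 to 79.3 against 205 to 305 CPM). They also had lower means of P2ry1 (0.682 CPM), P2ry12 (4.19 CPM) and P2ry13 (14.4 CPM). The part of either list in these results was not tested.

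P2ry10b is a paralog of P2ry10, and only uniquely mapped reads were counted, so the level of either gene is uncertain where their sequences match. Monocytes had the highest mean of P2ry10b (19.5 ± 5.34 CPM) and LN CD103+ DCs the lowest (1.25 ± 0.667), a 15.6-fold difference (3.98 ± 0.52, adjusted p = 3.14e-06). Gpr34, a receptor for lysophosphatidylserine, averaged 131 ± 24.3 CPM in splenic CD4+ DCs and 83.2 ± 18.5 in splenic CD8+ DCs, and was 15.4-fold lower in LN CD103+ than in splenic CD8+ DCs (-3.96 ± 0.27, adjusted p = 1.7e-09) and 6.62-fold lower in LN CD11b+ than in splenic CD4+ DCs (-2.73 ± 0.25, adjusted p = 1.3e-07). Gpr171, a P2Y-like receptor, resembled P2ry14 in its leading subtype, with 142 ± 6.91 CPM in splenic CD8+ DCs and at most 20.2 CPM elsewhere. It was 96.6-fold lower in monocytes than in splenic CD8+ DCs (-6.66 ± 0.61, adjusted p = 5.57e-08). The plasmacytoid DC list reached its highest sum in the same subtype as Gpr171, and its part in the result was not tested.

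Of the other adenosine receptors, Adora3 passed the filter and Adora1 did not. Adora3 was found mainly in splenic CD8+ DCs (8.39 ± 0.964 CPM), where Adora2a was lowest, and was 20.5-fold higher there than in splenic CD4+ DCs (4.31 ± 0.61, adjusted p = 3.76e-05) and 11.7-fold higher than in LN CD103+ DCs (adjusted p = 5.2e-05). Its 2 counts over the LN CD11b+ libraries give no firm ratio. The plasmacytoid DC list peaked in the subtype with the most Adora3 too, and its part in that result was not tested.

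Of 10 other ectonucleotidases, 6 passed the filter. The phosphatase Alpl had 168 counts over splenic CD8+ DCs and none over splenic CD4+ or LN CD11b+ DCs, and was at least 44.3-fold higher than in the former (adjusted p = 0.000769) and at least 46.6-fold higher than in the latter (adjusted p = 0.000388). Bst1 and Cd38 encode enzymes that cleave NAD. Bst1 averaged 26.2 ± 3.06 CPM in LN CD103+ DCs, 18.97 ± 6.56 in monocytes and 16.3 ± 4.20 in splenic CD8+ DCs, but 0.313 ± 0.407 in splenic CD4+ DCs, a 52.1-fold difference within the spleen (5.48 ± 0.58, adjusted p = 1.24e-06). The splenic CD4+ level rested on 7 counts, 6 of them in replicate 1, so that leaving out replicate 1 gave a ratio of 196 and leaving out replicate 2, which had none, 34.7. Cd38 was lowest in monocytes, 34.2-fold below splenic CD8+ DCs (-5.00 ± 0.37, adjusted p = 3.29e-09). Enpp2 (autotaxin), which makes lysophosphatidic acid, averaged 5.92 ± 2.22 CPM in splenic CD4+ DCs and had 1 count over the monocyte libraries (adjusted p = 4.93e-05).

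Among genes of adenosine removal and transport, 9 of 13 passed the filter. The AMP deaminase Ampd3 averaged 193 ± 21.4 CPM in monocytes, 107 ± 8.02 in splenic CD8+ DCs and 106 ± 29.98 in splenic CD4+ DCs, but 19.4 ± 3.79 in LN CD103+ and 12.2 ± 3.69 in LN CD11b+ DCs. It was 8.64-fold lower in the LN in DC2 (-3.09 ± 0.26, adjusted p = 4.99e-08). Slc29a1, an equilibrative nucleoside transporter, varied widely in splenic CD4+ DCs (29.5 ± 19.2 CPM) and was 8.63-fold lower in LN CD103+ than in splenic CD4+ DCs (-3.10 ± 0.51, adjusted p = 6.66e-05), or 14.8-fold without replicate 1 of LN CD103+ DCs.

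**Figure D5:**
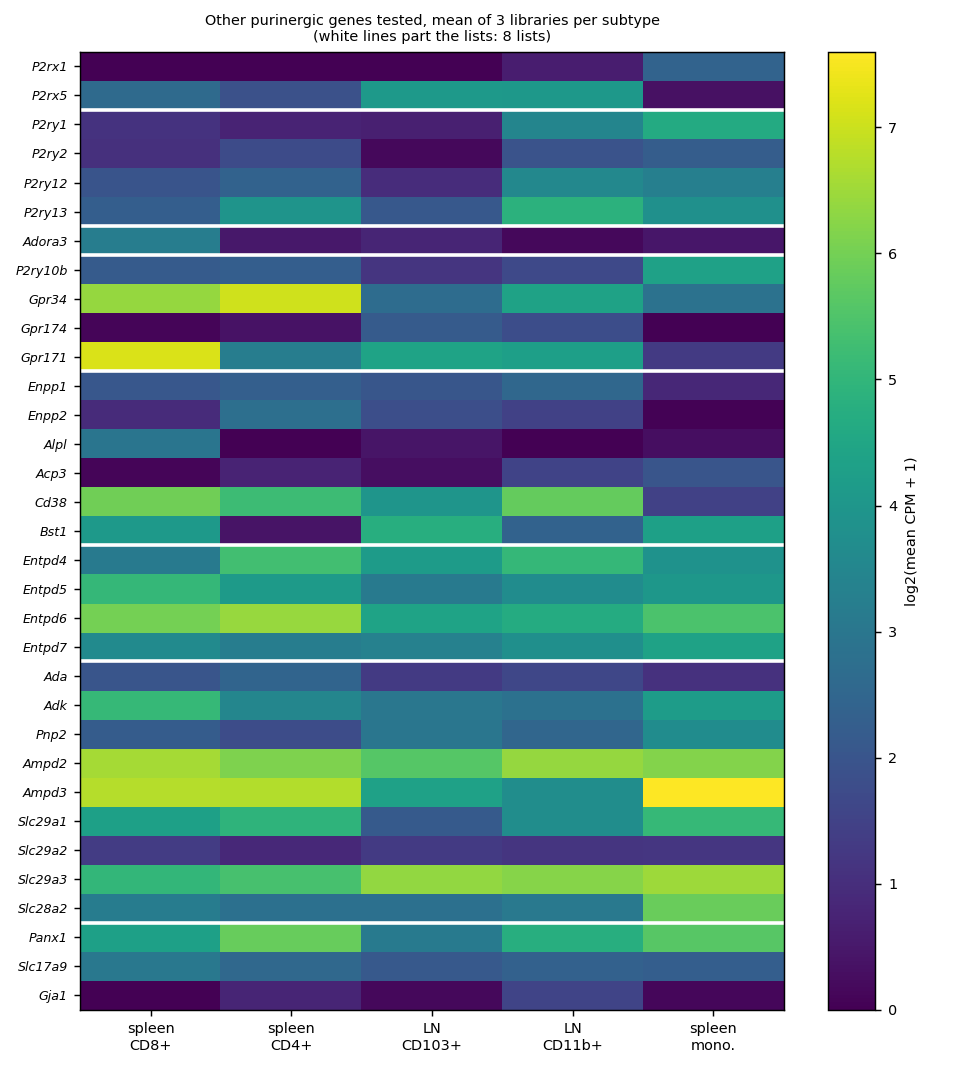
Mean CPM of the 33 other genes tested, as log2(mean CPM + 1) over the 3 libraries of each subtype, with white lines between the 8 lists. Gpr171 is brightest in splenic CD8+ DCs and Gpr34 in splenic CD4+ DCs, Ampd3 is darker in both LN columns than in the splenic ones, and P2ry1 is brightest in monocytes.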

How the data were processed

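RNA-seq of 15 libraries (5 sorted subtypes, 3 pooled libraries each, 18 sequencing runs) was analysed. Per the labels and methods, the authors aligned the Ion Torrent reads with STAR 2.4.0j (build mm10) and made the deposited gene counts from uniquely mapped reads with featureCounts (Subread 1.5.2), without regard to strand and with reads counted for each overlapping gene. Monocyte libraries were sequenced in 2 runs, which the authors summed. The deposited TPM rest on the same counts divided by gene length, as the authors supplied them, and recomputed TPM differed by at most 9.6e-10. Libraries held 4531243 to 10233914 counts on genes. Symbols were matched to 37607 identifiers.

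Genes above 1 CPM in at least 3 libraries (14456) were fitted in 1 model over all subtypes with edgeR 4.0.16 (R 4.3.3; quasi-likelihood test, TMM factors 0.883 to 1.1, 10 residual degrees of freedom), with Benjamini-Hochberg adjustment. The procedure was tested on simulated data, and no result of that test is given here. Alternatives were RLE size factors, DESeq2 1.42.0, no filter (23169 genes) or filterByExpr (13888 genes), limma 3.58.1 on log2(TPM + 1) or log2(TPM + 0.1), an added fold change threshold, only the subtypes compared, a replicate block, each library left out and, chosen after seeing the data, both LN libraries with the most B cell counts left out. Where a group had no count, 3 counts over the group stood in for it. Such limits cover counting error only.

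Replicate numbers in the labels were checked for pairing by the correlation of same-numbered deviations from the group means. All were over 0.1 for splenic CD8+ with CD4+ DCs (0.162 to 0.375), splenic CD4+ with LN CD103+ (0.118 to 0.146) and LN CD11b+ DCs (0.197 to 0.266), and LN CD103+ with CD11b+ DCs (0.179 to 0.259), and not for the other 6 pairs. All 9 members are named. Other purinergic genes are named where they are among the 3 largest called changes of the wider lists in a pair of subtypes and reach 5 CPM on average in either. The members and lists were chosen with earlier results of these data known. No column of per-sample values was left unused.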

Additional observations from a re-analysis of the deposited data

Results flagged for a closer look

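The difference between LN and spleen was not alike in DC1 and DC2 for 6 of the 9 members by the interaction term of the edgeR fit, which 11.2% of all genes passed. The log2 difference of DC1 minus that of DC2 was -7.06 for P2ry14, -3.47 for P2ry6, -3.35 for P2rx7, -1.63 for Entpd1, 1.36 for P2ry10 and 2.06 for Adora2a. P2ry14 was the only member with called organ differences in opposite directions in the lineages. Its LN levels were low in both lineages (4.25 CPM in LN CD103+ and 8.83 CPM in LN CD11b+ DCs), and the splenic levels were 155 CPM in CD8+ and 2.38 CPM in CD4+ DCs. Organ, cohort of mice and the MHC class II gate of the LN DCs cannot be told apart in any of these values.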

How the results depend on the processing

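Of 99 tests of members, 68 passed the threshold, 60 of these passed under every alternative apart from the added fold change threshold, 8 were lost under at least 1 alternative and 0 changed direction. Of the 31 that did not pass, 13 passed under at least 1 alternative. Beside those given with the results and those of the replicate block, these were, with no filter on low counts, Adora2b between LN CD103+ and LN CD11b+ DCs (adjusted p = 0.0137) and Nt5e between monocytes and splenic CD4+ DCs (0.0225), and P2rx4 between monocytes and LN CD11b+ DCs with DESeq2 (0.0488) or only the subtypes compared (0.0432). The count of members between splenic CD8+ and CD4+ DCs was 5, and 3 with a log2 fold change of at least 1 required in addition (18.3% of all genes). Between LN CD103+ and LN CD11b+ DCs it was 4, and 7 with no filter on low counts (9.92% of all genes). The other counts stayed within 1.5 times. Nt5e had at most 46 counts in a library, and Adora2b had 1, 2 and 5 counts in LN CD103+ DCs.

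Directions turned only for differences near 0 that did not pass, and the cause was not tested. For Nt5e between LN CD103+ and LN CD11b+ DCs the values were -0.01 (limma on log2(TPM + 1)), -0.03 (replicate block), -0.06 (B cell libraries out) and -0.78 to 0.49 with 1 library left out. For Adora2a in that comparison they were -0.03 with either limma setting and -0.14 to 0.21 with 1 library left out. P2ry10 between LN CD11b+ and splenic CD4+ DCs gave 0.03 (block), 0.04 (B cell libraries out) and -0.22 to 0.28. P2rx4 between monocytes and splenic CD4+ DCs gave -0.01 (RLE), -0.01 (DESeq2), -0.03 (only the subtypes compared) and -0.12 to 0.16. P2ry14 between monocytes and LN CD103+ DCs gave 0.27 and 0.34 (limma), 0.00 (block), 0.69 (B cell libraries out) and -0.41 to 0.69. Without 1 library, Entpd1 between the splenic DCs gave -0.32 to 0.06 and Adora2a between monocytes and splenic CD4+ DCs -0.40 to 0.19.

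Same-numbered correlations were not all over 0.1 for monocytes with splenic CD8+ or CD4+ DCs, which does not show that these samples were unpaired. With the replicate block, P2rx7 passed between monocytes and splenic CD8+ DCs (0.71, adjusted p = 0.0481) and Entpd1 between monocytes and splenic CD4+ DCs (-0.48, adjusted p = 0.0443). Apart from these and the 3 calls given with the results, the block changed no call of a member.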

Other observations

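The TPM of Adora2a set against that of Entpd1 in the same library separated every LN from every splenic library. It was 90.8 to 195 in LN CD103+ DCs and 28.4 to 63.3 in LN CD11b+ DCs. In the spleen it was 0.293 to 0.491 in CD8+ DCs, 0.947 to 2.33 in CD4+ DCs and 1.87 to 1.88 in monocytes. The ratio was formed after the levels of both genes had been seen, and no test was made.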
